A study of Mus musculus with 6 samples.

Results

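The genes described here encode the respiratory chain and the ATP synthase of mitochondria, grouped by complex I to V and by the genome that carries them. They were taken from the deposited expression table by gene name (names starting with Ndufa, Ndufb, Ndufc, Ndufs, Ndufv, Uqcr, Cox4 to Cox8 or Atp5, the names Sdha to Sdhd, the mitochondrial mt-Nd, mt-Co, mt-Atp and mt-Cytb genes, and Cyc1), leaving out names with -ps. This gave 111 of 55951 genes, 98 in the nucleus and 13 on the mitochondrial chromosome. Among the nuclear genes were 77 structural subunits (21 core and 56 accessory), 9 assembly factors, 8 tissue-specific isoforms and 4 copies. RNA with poly(A) tails was sequenced from splenic T cells of C57BL/6 mice that carry an S100A4-EGFP reporter and had asthma induced with ovalbumin (OVA). Cells in a CD3+ CD8+ CD4- CD44+ CD62L- gate, the effector-memory CD8 gate, were divided into EGFP-negative cells (3 libraries, S100A4-negative) and EGFP-positive cells (3 libraries, S100A4-positive), so both groups share the strain, the reporter and the OVA model. The labels do not say whether the 3 samples of a group came from separate animals, and p-values measure only the spread between these samples. Levels are FPKM, fragment counts scaled to transcript length and to the size of the library, as deposited.

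S100a4 itself, the gene that the reporter follows, was at 0.178 ± 0.207 FPKM in the S100A4-negative and 2.27 ± 1.52 in the S100A4-positive libraries (SD, n = 3 each); no test is given, since the cells were sorted on its reporter and it reached 1 FPKM through the S100A4-positive libraries alone. The libraries held 14925260 to 18660188 recovered reads. The markers of the gate did not follow the label of the S100A4-positive group: all 10 T cell and CD8 genes fell (median log2 difference -2.58), with a summed level of 1860.5 to 2170.0 FPKM in the S100A4-negative and 278 to 422 in the S100A4-positive libraries. All 15 monocyte and macrophage genes rose (median 3.39), from sums of 463 to 667 FPKM in the S100A4-negative and 6042 to 6749 in the S100A4-positive libraries. The B cell, plasma cell and neutrophil lists had 6 of 6 genes lower each, with medians of -1.40, -1.97 and -2.56. Their sums were 474 to 1314 FPKM in the S100A4-negative and 240.4 to 397 in the S100A4-positive libraries (B cell), 1184 to 2649 FPKM in the S100A4-negative and 277 to 581 in the S100A4-positive libraries (plasma cell) and 3226 to 4784 FPKM in the S100A4-negative and 403 to 1679 in the S100A4-positive libraries (neutrophil). Of 5 tested erythroid genes 0 passed limma, 0 had an unadjusted p under 0.05 and limma-voom called 0, and in none of these lists was a marker at 0 in all 6 libraries. These shifts in cell markers accompany every comparison below, and their part in the results was not tested. In bulk RNA, fewer cells of a type and less RNA per cell cannot be told apart.

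Complex I takes electrons from NADH and complex II from succinate; both pass them to ubiquinone, and complex III hands them on to cytochrome c. Complex IV then reduces oxygen, and complex V, the ATP synthase, uses the proton gradient that complexes I, III and IV build. Most subunits are encoded in the nucleus and imported, while a few hydrophobic core subunits are made inside the organelle from mitochondrial DNA, transcribed as long polycistronic RNAs. Complex II has nuclear subunits only. CD8 T cells raise mitochondrial content and respiration when they form memory, and macrophages differ in respiration with their activation state.

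Mitochondrial genes have copies in the nuclear genome, and a read from a stretch that a copy repeats has more than one place to align. In the mouse build GRCm38, a run of pseudogenes on the - strand of chromosome 1 repeats the stretch of mitochondrial DNA from mt-Co1 to mt-Nd4. The opening 90 bases of mt-Co2 (chrM:7013-7102, + strand) and of its copy Gm28661 (chr1:24615476-24615565, - strand) are shown because they are identical. A stretch of mt-Co1 (chrM:6390-6479) is shown beside Gm29216 (chr1:24616099-24616188, - strand) for the single substitution between them, A1066T, in capitals (position 1066 counted from 1 at the start of mt-Co1, the gene's base before the copy's).
mt-Co2: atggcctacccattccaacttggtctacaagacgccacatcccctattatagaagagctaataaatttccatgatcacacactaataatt
Gm28661: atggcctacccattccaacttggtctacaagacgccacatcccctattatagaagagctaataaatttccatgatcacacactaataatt
mt-Co1: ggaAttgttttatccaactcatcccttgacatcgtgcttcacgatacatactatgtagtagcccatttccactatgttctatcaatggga
Gm29216: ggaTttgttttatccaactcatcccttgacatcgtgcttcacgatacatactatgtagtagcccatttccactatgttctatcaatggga
Over 681 aligned bases mt-Co2 and Gm28661 had 0 mismatches, and the same held for mt-Atp6 and Gm10925 (678 bases), mt-Co3 and Gm28437 (783), mt-Nd3 and Gm28438 (342) and mt-Nd4l and Gm10222 (294). Gm28439 matched 63.6% of mt-Nd4 without a mismatch, and Gm29216 matched 31.3% of mt-Co1.

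The promoters of nuclear subunits are known for sites of the nuclear respiratory factor NRF1, of ETS factors such as GABP (also called NRF2) and of YY1. In RefSeq windows of GRCm38.p6, from 250 bases before to 50 after each gene start, 64 of 77 nuclear structural subunits could be matched by name. The NRF1 motif (GCGC, then A and any base, then GCGC), searched on both strands like the others, was present in 17 of the 64 (26.6%), against 11.6% of 9328 tested genes and 5.19% of all 27025 genes with a promoter window. AAGATGGC (YY1) was found in 10 of the 64 (15.6%, against 5.54% of tested genes), and CCGGAAGT (ETS) in 5 (7.81%, against 9.51%). Windows of 4 genes that passed the test are printed with the match in capitals, on the gene's strand: Atp5k (NRF1; chr5:108434430-108434459, - strand), Ndufaf4 (NRF1; chr4:24897960-24897989, + strand), Ndufs7 (YY1; chr10:80249462-80249491, + strand) and Ndufs3 (ETS, reverse complement; chr2:90904703-90904732, - strand).
Atp5k: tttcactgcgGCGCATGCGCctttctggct
Ndufaf4: ccagatgtctGCGCATGCGCctgtgcggaa
Ndufs7: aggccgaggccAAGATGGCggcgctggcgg
Ndufs3: tgcacatttccACTTCCGGtccgtgccctt
Atp5k rose and Ndufaf4 fell, and both carry the NRF1 motif as GCGCATGCGC. A match describes these letters only and is not shown to be bound.

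The comparison asked how the S100A4-positive cells differ from the S100A4-negative cells of the same gate. Genes carried by mitochondrial DNA were lower in the S100A4-positive libraries, while most nuclear subunits did not pass the test: 9 of 11 tested mitochondrial genes fell and 0 rose, and among 77 nuclear structural subunits 5 fell, 3 rose and 69 did not pass. The median log2 difference (S100A4-positive minus S100A4-negative, on log2(FPKM + 1), which understates the change of low genes) was -0.69 for the mitochondrial genes and -0.065 for the nuclear subunits. Over all 13241 tested genes the median was -0.36, so the nuclear subunits lay 0.29 above it and the mitochondrial genes 0.33 below it (relative median -0.33). The test was limma on all genes with a mean of at least 1 FPKM, which 100 of the 111 members reached, and a gene is said to have risen or fallen where the Benjamini-Hochberg adjusted p was under 0.05. Falls and rises are given on this log2 scale throughout. By that rule 62.3% of all tested genes were called, 19.0% higher and 43.4% lower. Of the 100 tested members, 4 were higher and 19 lower. Cox7a1 and mt-Nd3 reached that mean through the S100A4-negative libraries alone, and without them 4 of 98 were higher and 18 lower. All S100A4-positive libraries lay above all S100A4-negative ones in 6 members and below them in 26, against 20.9% and 49.1% of all tested genes.

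The direction of the nuclear genes depended on the scaling. Median-of-ratios rescaling, which evens out the typical gene between libraries and raised the median of all genes by 0.33, called 21 members higher and 5 lower, against 27.3% and 24.8% of all genes; of all calls 52.4% were then higher, against 30.4% with FPKM as deposited. The nuclear subunit median became 0.31 and the mitochondrial median -0.33 with 2 of 11 genes lower. The authors' deposited table, on its own normalized read counts, calls 9 members higher (Atp5k, Cox4i1, Cox5a, Cox6a1, Cox6b1, Ndufaf7, Ndufs8, Uqcr11 and Uqcrb), 1 lower (Ndufaf4) and 0 mitochondrial genes. In that table the median of the tested members is 0.28 (nuclear 0.32, mitochondrial -0.40), against -0.018 for all genes tested here. Of those 13241 genes it calls 2628 higher and 1833 lower. With FPKM as deposited the mitochondrial median lay below that of the nuclear subunits (-0.69 against -0.065). Median-of-ratios divides each library by a constant, so it nearly keeps the order of these medians and is no separate check. With quantile normalization the medians were -0.58 and 0.091. The plot of differences by complex shows the gap with FPKM as deposited.

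**Figure D1:**
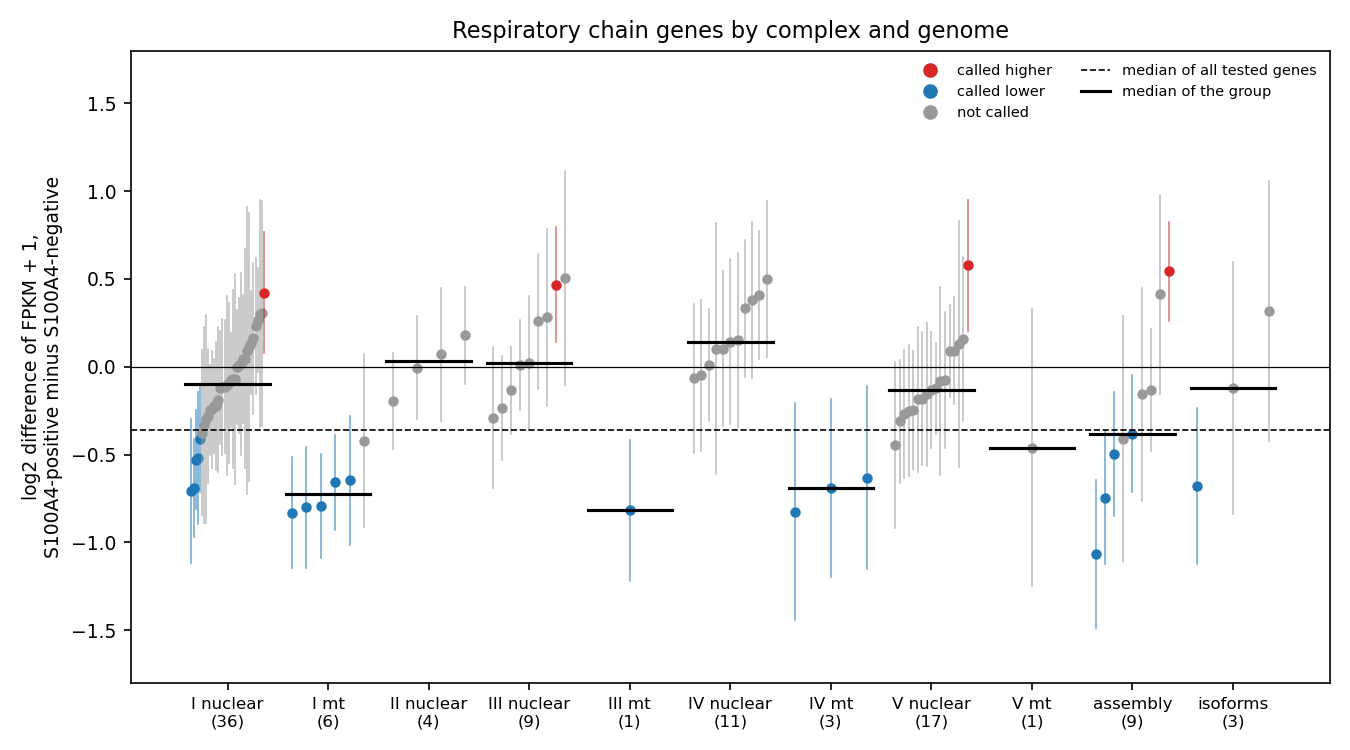
Log2 difference of FPKM + 1 (S100A4-positive minus S100A4-negative) for the 100 tested members by complex and genome, with the number of genes under each group; points are limma estimates, thin lines 95% confidence intervals, bars group medians and the dashed line the median of all tested genes (-0.36). The mitochondrial (mt) groups lie below the nuclear group of the same complex; the nuclear medians of complexes I and V lie below 0 here and above 0 with median-of-ratios rescaling.

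The mitochondrial genes mt-Co1, mt-Cytb, mt-Nd1 and mt-Nd2 had the highest mean levels of all members. mt-Co1 (chrM:5328-6872), the catalytic subunit of complex IV, was at 8039, 6713 and 7625 FPKM in the S100A4-negative libraries and 5159, 4335 and 4369 in the S100A4-positive ones. mt-Cytb (chrM:14145-15288), the haem-bearing core of complex III, was at 3182, 2988 and 3071 and at 1971, 1662 and 1629 FPKM. Every S100A4-negative library was above every S100A4-positive one for both genes. mt-Cytb fell by 0.82 (SE 0.17, limma adjusted p = 0.00509) and mt-Co1 by 0.69 on the log2 scale (SE 0.22, limma adjusted p = 0.0260). mt-Co1 lost its call when S100A4-negative replicate 1 or 3, and likewise S100A4-positive replicate 2 or 3, was left out (limma adjusted p = 0.0755, 0.0873, 0.124 and 0.104).

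The subunits of complex I made in the organelle form its proton-pumping membrane arm. mt-Nd1 (chrM:2751-3707) was at 2495, 2335 and 2489.9 FPKM in the S100A4-negative and 1658, 1521 and 1498 in the S100A4-positive libraries, and fell by 0.65 (SE 0.16, limma adjusted p = 0.00941). mt-Nd2 was at 1423, 1329 and 1357 against 783, 787 and 736 FPKM. mt-Nd4 was at 839.9, 799 and 824 against 507, 474 and 441 FPKM. In all of these the groups did not overlap, and the S100A4-positive values were the lower ones. mt-Nd5, the longest of these genes, was at 1177, 1068 and 1174 against 735, 642 and 592 FPKM. mt-Nd6, which alone among the 13 lies on the other strand of the chromosome, was at 420.3, 410.4 and 434 against 287, 263 and 251 FPKM. Log2 differences of mt-Nd2, mt-Nd4, mt-Nd5 and mt-Nd6 were -0.83, -0.79, -0.80 and -0.66 (limma adjusted p = 0.00164, 0.00158, 0.00289 and 0.00236). The calls of mt-Nd2 and mt-Nd4 were also made after median-of-ratios rescaling (-0.45 and -0.42), whereas mt-Nd1, mt-Nd5, mt-Nd6, mt-Cytb and mt-Co1 then had differences from -0.44 to -0.27 and did not pass. Whether the counting used strand is not given in the sources used here, so reads of mt-Nd6 and of antisense RNA cannot be told apart.

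**Figure D2:**
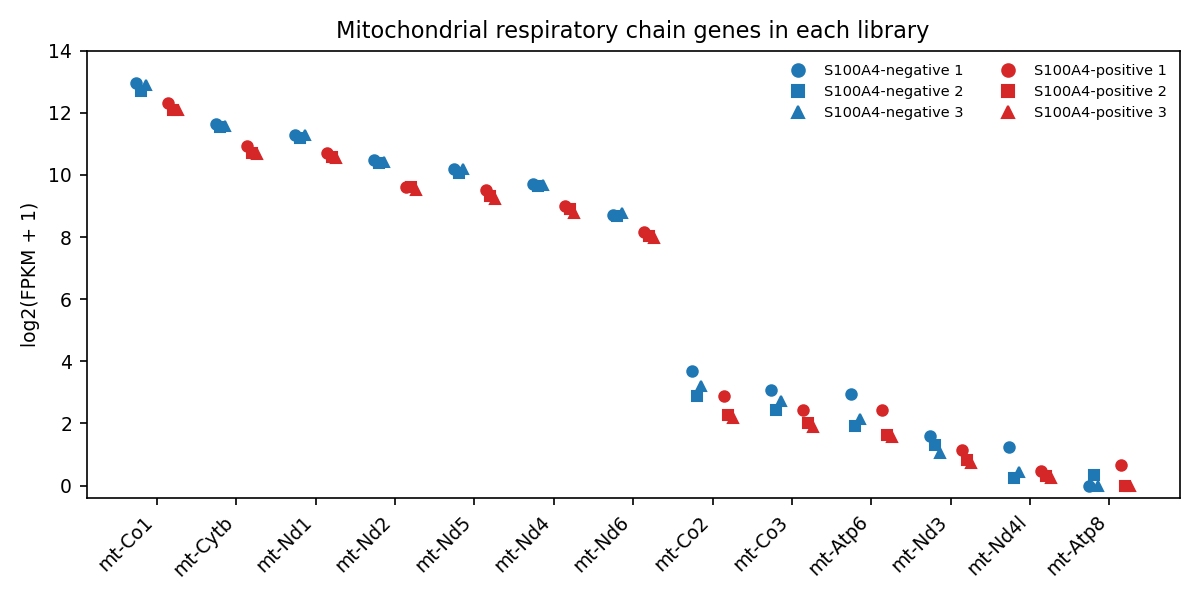
Level of each of the 13 mitochondrial genes in each library as log2(FPKM + 1), blue for S100A4-negative and red for S100A4-positive, with the symbol showing the replicate. The 7 genes on the left lie between 251 and 8039 FPKM with the red points below the blue ones; the 6 on the right stay under 12 FPKM.

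The other mitochondrial genes were listed far lower. mt-Co2, which receives electrons from cytochrome c, was at 11.9, 6.42 and 8.30 FPKM in the S100A4-negative libraries, from 138, 78 and 106 reads, and at 6.30, 3.82 and 3.54 in the S100A4-positive ones, from 73, 39 and 42 reads. mt-Co3, the third core subunit of complex IV, was at 7.51, 4.45 and 5.54 and 4.37, 3.08 and 2.72 FPKM. The groups did not overlap in mt-Co2 or mt-Co3, which fell by 0.83 and 0.63 (limma adjusted p = 0.0279 and 0.0398). Both calls were lost when S100A4-negative replicate 1 or 3, and likewise S100A4-positive replicate 2 or 3, was left out, with limma adjusted p = 0.0851, 0.0643, 0.0852 and 0.0869 for mt-Co2 and 0.123, 0.0838, 0.102 and 0.120 for mt-Co3. mt-Atp6, the proton channel of the ATP synthase, was at 6.66, 2.81 and 3.38 and 4.42, 2.07 and 1.95 FPKM, with overlapping groups. mt-Nd3 was at 2.03, 1.46 and 1.08 and 1.19, 0.770 and 0.662 FPKM, also overlapping, and it reached the mean of 1 FPKM through the S100A4-negative libraries alone. Neither passed (limma adjusted p = 0.261 and 0.116). mt-Nd4l and mt-Atp8 were under 1 FPKM on average and were not tested, with 7, 1 and 2 and 0, 1 and 0 reads in the S100A4-negative and 2, 1 and 1 and 2, 0 and 0 in the S100A4-positive libraries.

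These low values go with the copies shown above. Of the 50-base windows of mt-Co2, mt-Co3, mt-Atp6, mt-Nd3 and mt-Nd4l, 98.0% to 100% also occur in another annotated transcript. Windows of mt-Cytb, mt-Nd1 and mt-Nd6 were shared in 0%, those of mt-Nd2 and mt-Nd5 in 8.19% and 7.61%, and those of mt-Co1 and mt-Nd4 in 51.1% and 62.2%. mt-Atp8 shares 0% with an annotated transcript, and lies between the parts of the mitochondrial DNA that Gm10925 and Gm28661 repeat. The copies were low as well: Gm28661 was at 3.35 to 10.6 FPKM and Gm10925 at 5.73 to 18.8. Gm29216, the copy of part of mt-Co1, had 408 reads in S100A4-negative replicate 3 and 541 in S100A4-positive replicate 2, against 29 to 68 in the other libraries. How reads with several matches were treated is not given in the sources used here and was not tested. The levels of the mitochondrial genes with shared windows are therefore uncertain, and a low value cannot be read as low expression.

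**Figure D3:**
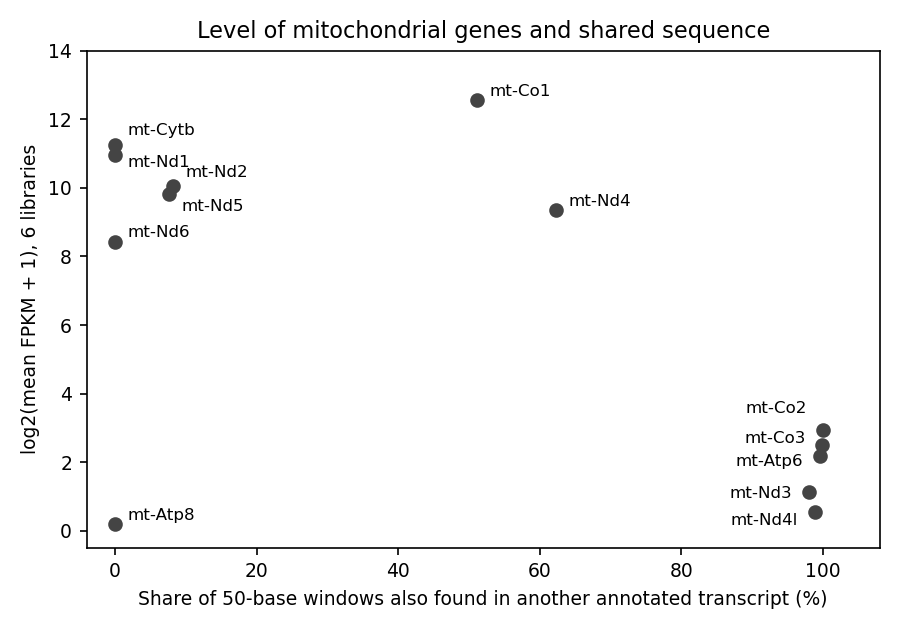
Mean level of the 13 mitochondrial genes over the 6 libraries, as log2(mean FPKM + 1), against the share of their 50-base windows that another annotated transcript also holds (percent). The 5 genes with over 97% of windows shared lie at the bottom right; mt-Atp8 is the low gene with 0% shared.

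Ratios within a library do not depend on scaling between libraries. The summed FPKM of the 7 mitochondrial genes over 100 FPKM was 3.50, 2.61 and 2.65 times that of the 77 nuclear structural subunits in the S100A4-negative libraries and 2.24, 1.63 and 1.53 times in the S100A4-positive ones, without overlap, and the mean ratio was 1.62 times higher in S100A4-negative libraries. With the 5 of these genes that share under 10% of windows, the ratios were 1.73, 1.36 and 1.33 against 1.10, 0.822 and 0.755. mt-Co1 over Cox4i1, the largest nuclear subunit of the same complex, gave 64.0, 41.1 and 43.2 against 32.3, 19.1 and 19.7. In complex III, mt-Cytb over Cyc1 was 44.0, 39.4 and 33.8 against 31.4, 24.6 and 22.7. In each of these 4 ratios every S100A4-negative library lay above every S100A4-positive one, and replicate 1 was the highest of its group. The mitochondrial chromosome took 2.15% to 2.43% of reads in the S100A4-negative and 1.36% to 1.58% in the S100A4-positive libraries.

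The ribosomal RNAs of the same chromosome did not move with the protein-coding genes. mt-Rnr1, the small ribosomal RNA, rose from 269 ± 16.9 to 409 ± 85.8 FPKM (SD, n = 3 each; log2 difference 0.58, limma adjusted p = 0.0185). mt-Rnr2, the large one, was at 357 ± 17.8 and 451 ± 80.7 FPKM and did not pass (limma adjusted p = 0.104). The 7 mitochondrial genes over both ribosomal RNAs came to 27.8, 26.0 and 26.2 in the S100A4-negative and 14.3, 9.21 and 12.7 in the S100A4-positive libraries, 2.22 times higher on average in the former and without overlap. RNA was selected by its poly(A) tail before sequencing, and the recovery of RNAs with short tails was not tested.

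**Figure D4:**
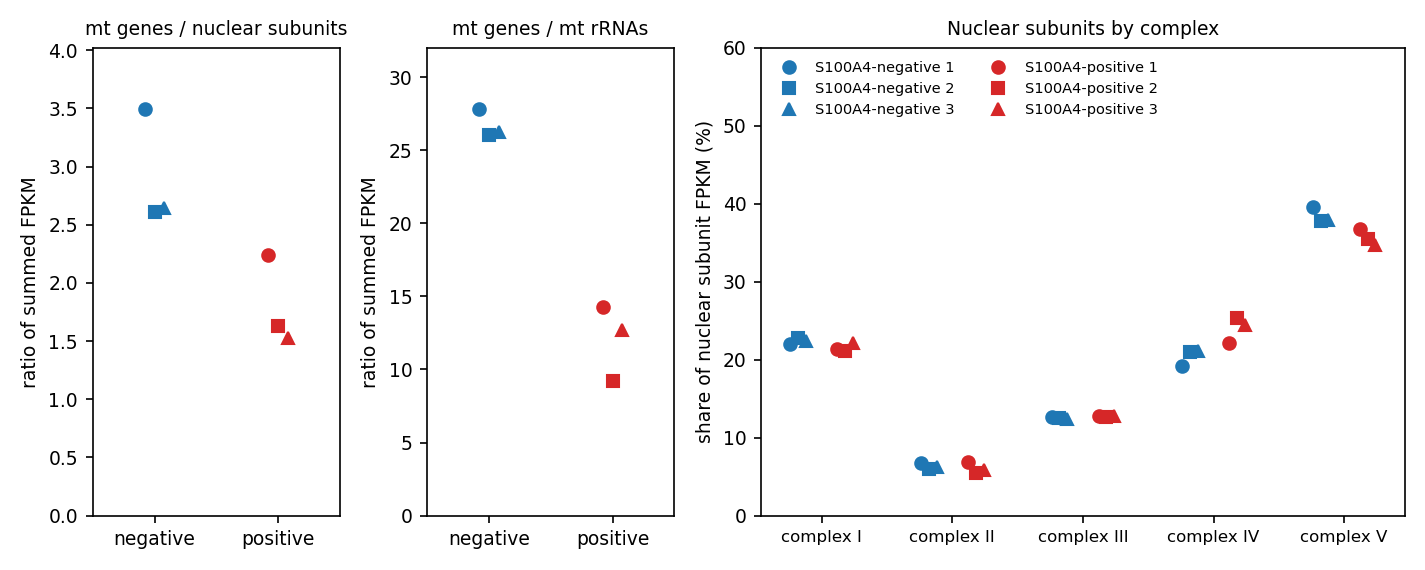
Left and centre: ratios of summed FPKM per library, of the 7 mitochondrial (mt) genes over 100 FPKM to the 77 nuclear structural subunits and to the mitochondrial ribosomal RNAs. Right: share of the summed FPKM of the nuclear subunits held by each complex (percent); the red S100A4-positive points lie below the blue S100A4-negative ones in both ratios and in complex V, and above them in complex IV.

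Complex I had 36 nuclear structural subunits, of which 5 fell, 1 rose and 30 did not pass (median -0.098; 0.26 after rescaling). Over all tested genes 43.4% fell and 19.0% rose. Of the 8 subunits of the module that oxidizes NADH 2 fell, and of the 8 in the module that reduces ubiquinone 2 fell and 1 rose. Of 19 nuclear subunits of the membrane arm 0 passed, 0 had an unadjusted p under 0.05 and 0 were called by limma-voom on the recovered reads, while after rescaling 2 were higher, Ndufb8 (0.64) and Ndufc2 (0.60), both named after their values were seen. Over all tested genes 27.3% were higher after rescaling. The difference between the arms was not tested. Ndufv1 and Ndufv2, which hold the flavin and an iron-sulfur cluster at the NADH end, had intervals of -0.58 to 0.092 and -0.50 to 0.27 around differences of -0.24 and -0.12 and did not pass. Ndufv1 was at 44.3, 58.4 and 53.9 FPKM in the S100A4-negative and 38.7, 45.8 and 46.9 in the S100A4-positive libraries. Ndufv2 was at 37.3, 49.8 and 50.8 against 40.1, 37.4 and 49.2 FPKM. The groups overlapped in both genes. Ndufs1 (chr1:63143596-63176833), the large iron-sulfur subunit, was at 43.5, 39.2 and 46.7 FPKM against 36.2, 28.8 and 31.9, without overlap, and fell by 0.41 (SE 0.13, limma adjusted p = 0.0276). That call was lost when S100A4-negative replicate 1 or 3, and likewise S100A4-positive replicate 2 or 3, was left out (limma adjusted p = 0.0677, 0.0945, 0.0784 and 0.0739) and after rescaling (difference -0.041).

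Among the core subunits next to the ubiquinone site, members moved in opposite directions. Ndufs7 (chr10:80249121-80256794), which carries the terminal iron-sulfur cluster, was at 46.6, 45.4 and 53.0 FPKM in the S100A4-negative and 33.9, 30.1 and 35.5 in the S100A4-positive libraries, and fell by 0.53 (SE 0.12, limma adjusted p = 0.00704). Ndufs3 was at 47.3, 58.7 and 62.1 against 36.4, 34.2 and 46.2 FPKM and fell by 0.52 (SE 0.16, limma adjusted p = 0.0246). It lost its call when S100A4-negative replicate 2 or 3, and likewise S100A4-positive replicate 1 or 2, was left out (limma adjusted p = 0.0746, 0.0849, 0.0559 and 0.0774), and 17.9% of its windows are shared with other transcripts. After rescaling the differences of Ndufs7 and Ndufs3 were -0.16 and -0.15, and neither passed. Ndufs8 (chr19:3908863-3912774), another iron-sulfur subunit, went the other way, from 37.9, 54.2 and 47.8 to 63.9, 59.5 and 63.2 FPKM, and rose by 0.42 (SE 0.15, limma adjusted p = 0.0377). Its call was lost in each fit that left out a library other than S100A4-negative replicate 2 (limma adjusted p = 0.0961 and 0.0757 without S100A4-negative replicates 1 and 3, and 0.0739, 0.0649 and 0.0945 without S100A4-positive replicates 1, 2 and 3), but it was made with rescaling (0.79).

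Of the accessory subunits of complex I, 2 of 29 fell, against 43.4% of all tested genes, and both are named after their values were seen. Ndufv3, a small subunit beside the NADH site, was at 34.7, 38.3 and 36.6 FPKM in the S100A4-negative and 22.0, 20.3 and 24.8 in the S100A4-positive libraries, and fell by 0.69 (SE 0.12, limma adjusted p = 0.00213). The groups were well apart, and the gene also passed after rescaling (-0.32) and without each library in turn. Ndufab1, the mitochondrial acyl carrier protein, which also serves fatty acid synthesis in the organelle, was at 6.46, 8.99 and 9.44 against 4.17, 4.67 and 5.08 FPKM and fell by 0.71 (limma adjusted p = 0.00999). After rescaling its difference was -0.38 and did not pass (limma adjusted p = 0.0861). In Ndufa13 and Ndufb6, 29.98% and 39.0% of exon bases also belong to another gene, so their counts are uncertain. Neither passed.

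Of the 4 subunits of complex II 0 passed limma, 0 had an unadjusted p under 0.05 and 0 were called by limma-voom. Over all tested genes 62.3% passed limma. Sdha, the flavoprotein that oxidizes succinate, was at 223, 227 and 255 FPKM in the S100A4-negative and 210.4, 190.4 and 214 in the S100A4-positive libraries, where each value was the lower one. Sdhb, the iron-sulfur subunit, was at 46.5, 57.8 and 62.5 against 48.5, 63.5 and 63.3 FPKM. Sdhc, one of the membrane anchors, was at 26.0, 28.1 and 30.6 against 31.3, 30.2 and 34.7 FPKM. Sdhd, the other anchor, was at 43.0, 46.1 and 52.5 against 48.4, 42.5 and 50.1 FPKM. The groups overlapped in Sdhb, Sdhc and Sdhd. The log2 differences were -0.19 (95% interval -0.47 to 0.081), 0.070 (-0.31 to 0.45), 0.18 (-0.097 to 0.46) and -0.0045 (-0.30 to 0.29). After rescaling Sdhc and Sdhd passed as higher (0.55 and 0.37), as did 27.3% of all tested genes, so the sign of Sdhd turned.

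In complex III 1 of 9 nuclear subunits, Uqcrb, rose and 0 fell, beside the fall of mt-Cytb. Over all tested genes 19.0% rose and 43.4% fell. Uqcrb (chr13:66900617-66905378), a small accessory subunit near the ubiquinone pocket, was at 19.4, 24.2 and 24.7 FPKM in the S100A4-negative and 31.1, 29.1 and 35.1 in the S100A4-positive libraries. It rose by 0.47 (SE 0.14, limma adjusted p = 0.0212), and did not pass when S100A4-negative replicate 1, and likewise S100A4-positive replicate 3, was left out (limma adjusted p = 0.0640 and 0.0758). Pseudogenes and other transcripts share 25.5% of its windows. Cyc1, cytochrome c1, was at 72.3, 75.8 and 90.9 against 62.7, 67.6 and 71.7 FPKM, each S100A4-positive value the lower, and did not pass (difference -0.23, 95% interval -0.53 to 0.063). Uqcrfs1, the Rieske iron-sulfur protein, was at 46.2, 55.3 and 59.6 against 52.4, 68.1 and 73.8 FPKM with overlapping groups (0.26, -0.12 to 0.64). After rescaling 5 of the 9 nuclear subunits were higher and 0 lower, against 27.3% and 24.8% of all tested genes.

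Among the complexes, the nuclear subunits of complex IV had the highest median difference with FPKM as deposited. The median was 0.14, or 0.50 relative to all tested genes, and 9 of 11 were above 0. Median-of-ratios rescaling divides each library by a constant and so nearly keeps the order of the complexes. With quantile normalization complex IV was again the highest (median 0.21). By limma 0 of the 11 passed, 2 had an unadjusted p under 0.05, limma-voom called 1 higher, and 4 were called higher after rescaling (Cox4i1, Cox5a, Cox6a1 and Cox6b1, the same 4 of this complex that the authors' deposited table calls higher). Over all tested genes 62.3% passed limma, and 27.3% were called higher after rescaling. Cox4i1, the largest nuclear subunit, was at 126, 163 and 177 FPKM in the S100A4-negative and 159.5, 227 and 222 in the S100A4-positive libraries. Cox6b1, which faces the intermembrane space, was at 94.2, 130.4 and 133 against 135, 186 and 185 FPKM. Cox6a1 was at 136, 173 and 177 against 168, 224 and 221 FPKM. The groups did not overlap in Cox6b1, whose difference was 0.50 (95% interval 0.054 to 0.94, limma adjusted p = 0.0518). They overlapped in Cox4i1 (0.38, -0.065 to 0.83) and Cox6a1 (0.33, -0.056 to 0.72), where S100A4-positive replicate 1 lay among the S100A4-negative values. In a fit of replicates 2 and 3 of each group, chosen after seeing the data, Cox4i1, Cox6a1 and Cox6b1 passed (limma adjusted p = 0.0237, 0.0323 and 0.0106). They also passed with array weights, which give less weight to libraries that fit poorly (limma adjusted p = 0.0390, 0.0404 and 0.0166). The weight was 0.47 for S100A4-positive replicate 1 and 0.80 for S100A4-negative replicate 1. Without S100A4-positive replicate 1 they passed too (limma adjusted p = 0.0266, 0.0306 and 0.0165). Both settings reduce or drop that library, although replicate 1 was low for most nuclear subunits in both groups. With quantile normalization Cox6b1 passed (limma adjusted p = 0.0441), but Cox4i1 and Cox6a1 did not (limma adjusted p = 0.196 and 0.213). The 11 subunits held 19.2, 21.0 and 21.1% of the summed FPKM of all nuclear subunits in the S100A4-negative and 22.2, 25.4 and 24.5% in the S100A4-positive libraries, without overlap.

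Small subunits of complex IV that have tissue-specific relatives did not pass either. Cox7a2 was at 34.2, 61.4 and 60.8 FPKM in the S100A4-negative and 36.5, 70.9 and 61.1 in the S100A4-positive libraries. Cox7b was at 58.2, 67.5 and 93.7 against 65.9, 85.1 and 88.6 FPKM. Cox8a was at 149, 197 and 219.6 against 164, 216 and 225 FPKM. Their log2 differences were 0.10 (95% interval -0.61 to 0.82), 0.14 (-0.33 to 0.61) and 0.10 (-0.34 to 0.55). Ndufa4, first counted to complex I and later found in complex IV, was at 71.0, 87.1 and 87.2 against 72.7, 89.9 and 84.5 FPKM (0.012, -0.31 to 0.33). The tissue-specific relatives were listed at low levels beside them. Cox4i2, the lung form of Cox4i1, was at 0.242, 0.308 and 0.147 against 0.728, 0.734 and 0.553 FPKM, higher in each S100A4-positive library but under 1 FPKM and not tested. Ndufa4l2, a hypoxia-induced relative of Ndufa4, was at 0.460, 0.806 and 0.558 against 0.231, 0.0872 and 0 FPKM, also not tested. Cox6a2 and Cox6b2, the muscle and testis forms, reached at most 3.94 and 2.94 FPKM in any library and did not pass (limma adjusted p = 0.740 and 0.402). Cox7b2 was listed at 0 in all libraries, and Cox8b and Cox8c in all but 1 each. Cox7a1, the heart and muscle form of Cox7a2, was at 2.55, 1.54 and 1.59 against 0.807, 0.763 and 0.788 FPKM. It reached the mean of 1 FPKM through the S100A4-negative libraries alone, where it is high, so its call (log2 difference -0.68) is given as a description only. Of the 4 copies, Ndufa11b, Ndufb4c, Ndufs6b and Cox6c2, all stayed under 1 FPKM.

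Complex V held the largest share of nuclear respiratory chain RNA, with 39.5, 37.7 and 37.9% of the summed nuclear FPKM in the S100A4-negative and 36.7, 35.4 and 34.7% in the S100A4-positive libraries, without overlap. Of its 17 nuclear subunits 1 rose, 0 fell and 16 did not pass (median -0.13; 0.24 after rescaling). Over all tested genes 19.0% rose and 43.4% fell. Atp5b (chr10:128083273-128090391), the catalytic beta subunit and the highest nuclear member, was at 634, 692 and 778 FPKM against 539, 606 and 628. Atp5a1, the alpha subunit, was at 380.2, 365 and 386 against 349, 347 and 343 FPKM. In both genes each S100A4-positive library was the lower, and neither difference passed (-0.24, 95% interval -0.58 to 0.092; -0.12, -0.38 to 0.14). Atp5c1, the rotating gamma subunit, was at 105, 115 and 134 against 115, 131 and 130.1 FPKM with overlapping groups. The gene that passed was Atp5k (chr5:108433244-108434448), a small membrane subunit needed for pairing of ATP synthases, from 18.8, 27.4 and 24.7 to 32.3, 36.0 and 37.8 FPKM (0.58, SE 0.16, limma adjusted p = 0.0159). It did not pass without S100A4-positive replicate 3 (limma adjusted p = 0.0543), and it passed after rescaling and in the authors' deposited table. The genes for the c ring, Atp5g1, Atp5g2 and Atp5g3, encode the same mature protein with different leaders. Atp5g1 was at 15.8, 19.6 and 22.7 FPKM in the S100A4-negative and 14.4, 17.7 and 19.5 in the S100A4-positive libraries, Atp5g2 at 137, 145 and 174 and 105, 136 and 143, and Atp5g3 at 116, 140.4 and 153 and 99.9, 131 and 130.0. Of these 3 genes 0 passed limma, limma-voom called 0, and their differences were -0.16, -0.25 and -0.18. Atp5g2 shares 38.3% of its windows with other transcripts, and 47.9% of the exon bases of Atp5o belong to an overlapping gene, so both are uncertain.

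Assembly factors build the complexes or join them and, in most cases, are not part of the finished enzymes. Of 9 among the members 4 fell, 1 rose and 4 did not pass. Their median was -0.38, beside -0.36 for all genes, of which 43.4% fell and 19.0% rose. Ndufaf4 (chr4:24898083-24905001), which acts with Ndufaf3 on the ubiquinone module of complex I, was at 5.41, 5.95 and 8.08 FPKM in the S100A4-negative and 2.63, 2.23 and 2.75 in the S100A4-positive libraries. It had the largest fall of all tested members, -1.07 (SE 0.18, limma adjusted p = 0.00193), and passed after rescaling (-0.77) and in the authors' deposited table. Ndufaf1, part of the machinery for the membrane arm, was at 8.06, 7.26 and 8.79 against 4.64, 3.58 and 5.04 FPKM and fell by 0.74 (limma adjusted p = 0.00587; -0.42 after rescaling). Ndufaf5, an enzyme that modifies Ndufs7, was at 7.07, 7.11 and 7.44 against 4.13, 4.69 and 5.72 FPKM and fell by 0.50 (limma adjusted p = 0.0230). Ndufaf6, named after its values were seen, was at 6.27, 5.24 and 6.33 against 4.12, 4.24 and 4.60 FPKM and fell by 0.38 (limma adjusted p = 0.0486). These last calls were lost in 5 of 6 fits without a library: Ndufaf5 kept its call only when replicate 3 of the S100A4-positive group was left out and Ndufaf6 only when replicate 2 of the S100A4-negative group was, with limma adjusted p up to 0.0688 and 0.135. Ndufaf7, a methyltransferase needed to build complex I, was at 13.2, 14.3 and 14.95 against 20.6, 23.0 and 19.8 FPKM and rose by 0.55 (SE 0.12, limma adjusted p = 0.00634), in each fit without a library and after rescaling as well. Cox7a2l, which joins complexes III and IV into supercomplexes, was at 176, 181 and 193 against 136, 185 and 183 FPKM with overlapping groups and did not pass. Ndufaf2 is uncertain, since 65.6% of its exon bases belong to another gene.

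**Figure D5:**
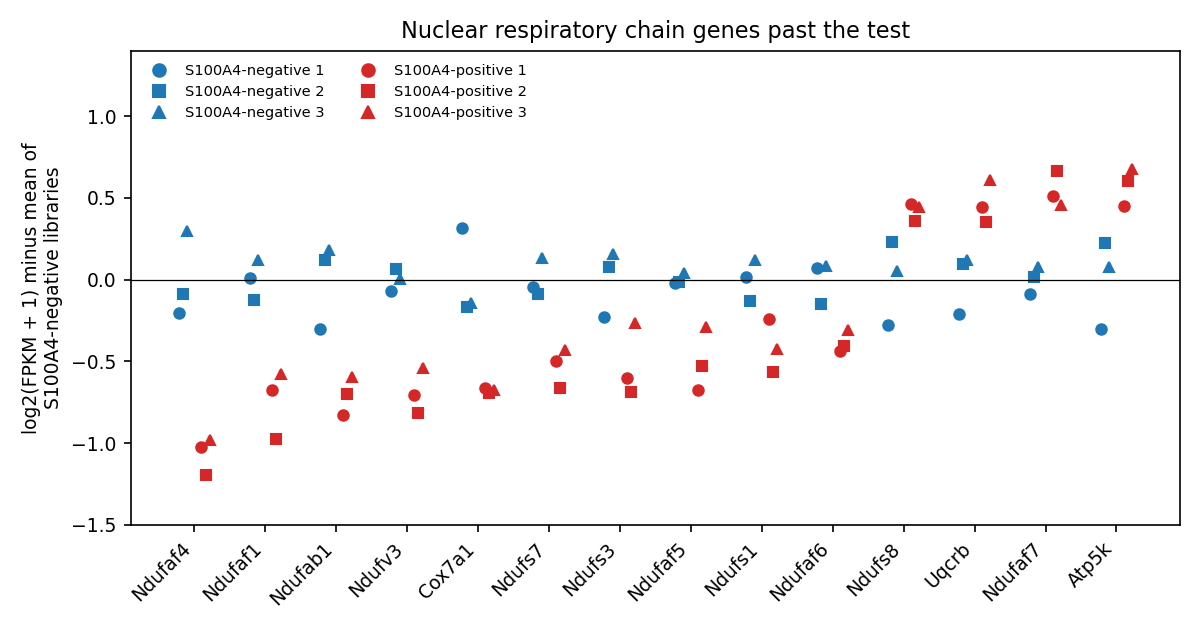
Log2(FPKM + 1) in each library minus the mean of the S100A4-negative libraries, for the 14 nuclear members that passed the test (9 lower and 4 higher without Cox7a1, which reached the mean of 1 FPKM through the S100A4-negative libraries alone), ordered by their difference; colours give the group and symbols the replicate. In all 14 the red S100A4-positive points lie wholly above or wholly below the blue ones. The genes were chosen by the test on these same libraries, so this separation adds no evidence. Over all tested genes the S100A4-positive points lay wholly above in 20.9% and wholly below in 49.1%. After median-of-ratios rescaling 7 of the 14 still passed.

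Other genes of the pathway were followed in lists, read against the 43.4% of all genes that fell and the 19.0% that rose. Of 34 tested assembly factors outside the name rule 17 fell and 0 rose (median -0.37), while after rescaling 5 were lower and 5 higher (-0.018). The largest falls were those of Atpaf1, a chaperone of the F1 head (-1.10), and of the complex I factors Tmem126b (-0.95) and Ecsit (-0.87). Genes that copy, maintain and transcribe mitochondrial DNA had 22 of 29 lower and 0 higher (median -0.62, or -0.26 relative to all genes; -0.35 with 14 lower and 1 higher after rescaling). The largest falls were those of Polg2, the accessory subunit of the mitochondrial DNA polymerase (-1.64), Mterf2 (-1.23) and the topoisomerase Top1mt (-1.16). Tfam, which packs mitochondrial DNA and starts its transcription, went from 47.5 ± 5.46 to 25.2 ± 2.69 FPKM (-0.89, limma adjusted p = 0.00126). Polrmt, the mitochondrial RNA polymerase, went from 17.3 ± 3.42 to 8.14 ± 1.84 FPKM (-1.01, limma adjusted p = 0.00463). Tfam and Polrmt were named after their values were seen.

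Regulators of mitochondrial biogenesis had 6 of 12 lower and 1 higher (median -0.57), and after rescaling 2 lower and 1 higher (-0.20). The falls were largest in Myc (-1.45) and in Gabpb1 and Gabpb2 (-0.78 and -0.77), partners of the ETS factor GABP, and the rise was that of the nuclear receptor Esrra, from 18.1 ± 4.005 to 39.4 ± 5.97 FPKM (1.09). Nrf1, the factor whose letters were searched for above, went from 34.9 ± 1.46 to 23.7 ± 3.34 FPKM (-0.55, limma adjusted p = 0.00865), and Ppargc1a, the coactivator PGC-1 alpha, was under 1 FPKM on average in both groups. Electron carriers and ubiquinone synthesis had 9 of 19 lower and 3 higher (median -0.37), against 3 lower and 4 higher after rescaling (-0.0015). The rises were those of Sqor, which oxidizes sulfide (2.08), Gpd2, which oxidizes glycerol 3-phosphate (1.00), and Etfa, an electron carrier of fatty acid oxidation (0.50). Coq8a and Coq9, of ubiquinone synthesis, and Dhodh, of pyrimidine synthesis, fell by 1.43, 0.80 and 0.79. Uncouplers, carriers and membrane markers had 3 of 18 higher and 6 lower, but 8 higher and 0 lower after rescaling (medians -0.092 and 0.28). Ucp2, an uncoupling protein, rose from 427 ± 66.7 to 741 ± 64.5 FPKM, and Slc25a4, the ADP/ATP carrier, fell by 0.72. Of 77 mitochondrial ribosomal proteins, which make the products of the mt genes, 31 fell and 2 rose (median -0.33), and after rescaling 9 were lower and 12 higher (-0.00081).

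Replicate 1 of both groups stood apart for short nuclear subunits. In the S100A4-negative group 71 of the 77 structural subunits were lower in replicate 1 than in the mean of replicates 2 and 3 (median log2 difference -0.34, against -0.03 over all tested genes), and in the S100A4-positive group 66 were (-0.35, against 0.05). The median was -0.42 and -0.43 in the 38 subunits under the median transcript length of 771 bases and -0.23 and -0.18 in the 39 longer ones. With replicates 2 and 3 of each group alone, 7 members were higher and 16 lower, and the nuclear subunit median was -0.032. Over all 13241 tested genes 2344 were then higher and 5311 lower. The 16 were all among the 19, and 2 of the 7 were among the 4. Whether transcript length had a part in this was not tested.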

How the data were processed

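Gene levels are FPKM computed by the authors and deposited in 1 table for all 6 libraries. The submitters' processing notes name HISAT2 2.1.0, Cufflinks, Cuffnorm and the mm10 build; how reads with several matches and strand were counted is not given in the sources used here. Per the file headers, the authors' deposited comparison table also holds group means of normalized read counts (signal), log2 fold changes and p-values. Whole reads were recovered from FPKM and those means (all 135018 values within 0.02 of a whole number), with 14925260 to 18660188 reads per library. No column of per-sample values went unused.

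The main test was limma 3.58.1 (R 4.3.3) with a trended prior on log2(FPKM + 1), for the 13241 genes with a mean of at least 1 FPKM, with Benjamini-Hochberg adjustment over all of them and 0.05 as the threshold. On simulated data it recovered 7 of 67 genes changed 1.5-fold, 47 of 67 changed 2-fold and 62 of 66 changed 4-fold, with 12 false calls. All other genes of the 13241 were left unchanged there, with a dispersion of 0.02 and no replicate effect. In the data 62.3% of genes were called, which moves the cut-off set by the adjustment. The simulated rates therefore do not give the sensitivity of the test in these data. Shared windows are 50-base stretches found in other GENCODE M21 transcripts of GRCm38. Promoter sequences are from RefSeq, GRCm38.p6. Exons overlapping another gene in over 25% of bases were taken as uncertain. Alternatives were another pseudocount (0.1), other filters, median-of-ratios, quantile and non-mitochondrial scaling, no trend, array weights, limma-voom on the recovered reads (8239 genes called, against 8253), a replicate block, leaving out each library and, chosen after seeing the data, replicates 2 and 3 only.

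The members and lists were chosen with earlier results of these data known. Named with every value were core subunits with redox or catalytic sites, tissue-specific isoforms beside their common form, and per complex and for assembly factors up to 3 called genes in each direction with the largest change; the other lists follow the last rule. Only some of the genes under these rules are described here. Ndufb1-ps, dropped by its name, was at 18.9 ± 4.54 and 25.8 ± 5.63 FPKM (SD, n = 3 each).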

Additional observations from a re-analysis of the deposited data

How the results depend on the processing

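Counts of called members moved with the scaling. Against 4 higher and 19 lower with FPKM as deposited, median-of-ratios gave 21 and 5 and quantile normalization 9 and 10. Array weights gave 10 higher, and replicates 2 and 3 alone, chosen after seeing the data, 7 higher. Of the 13241 tested genes, 2512 were higher and 5741 lower with FPKM as deposited. Median-of-ratios gave 3618 and 3286 of them, and quantile normalization 3032 and 4183. With array weights 2669 were higher, and with replicates 2 and 3 alone 2344. Leaving out each library in turn gave 1 to 11 higher and 12 to 17 lower; the count of rises was 2 without S100A4-negative replicate 1, 11 without S100A4-positive replicate 1 and 1 without S100A4-positive replicate 3, and the count of falls was 12 without S100A4-negative replicate 3, as without S100A4-positive replicate 2. Over all tested genes, the fits without each library gave 2189 to 2512 higher and 4609 to 5656 lower. Counted over structural subunits only, 3 members were higher and 14 lower with all libraries.

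The nuclear subunit median of -0.065 became 0.31 with median-of-ratios, 0.091 with quantile normalization and 0.035 with array weights, and ran from -0.18 to 0.098 without each library. The mitochondrial median of -0.69 became -0.33 with median-of-ratios and was below 0 under every alternative. With median-of-ratios the medians by complex, both genomes together, became 0.24 for complex I (main -0.12), 0.40 for II (0.033), 0.39 for III (0.015), 0.48 for IV (0.10) and 0.22 for V (-0.15), and with quantile normalization complex I became 0.033. With replicates 2 and 3 alone complex II was at -0.0076 and III at -0.019. Without each library the ranges were -0.059 to 0.12 for complex II, -0.081 to 0.076 for III and -0.071 to 0.26 for IV. Sdhd turned from -0.0045 to 0.37 with median-of-ratios (limma adjusted p = 0.0194). The cause of these shifts was not tested.

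The labels do not say that replicate numbers pair the samples, and the main test did not use them. Deviations of same-numbered libraries correlated at 0.376, 0.083 and 0.366 for replicates 1, 2 and 3. The values of replicates 1 and 3 were the highest of all pairs across the groups. Replicate 2 of the S100A4-positive group correlated better with S100A4-negative replicate 3 (0.146). Whether the samples are paired was not tested. With a replicate block 13 members were higher and 21 lower. Of all 13241 tested genes 8857 were then called, 2669 higher and 6188 lower. Cox4i1, Cox6a1 and Cox6b1 were among those higher with the block (limma adjusted p = 0.0161, 0.0220 and 0.00542).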
